A study of Caenorhabditis elegans with 2 samples.

Results

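The regions described here are the 237 places of ZTF-11 chromatin immunoprecipitation signal whose summit, the position of highest signal, lay within 1000 bp of a small nucleolar RNA (snoRNA) gene. They were taken by that distance from the 20201 nuclear regions that the authors called on both replicates pooled, and so make up 1.17% of them. The nearest snoRNA gene lay inside a protein-coding gene, its host, for 140 regions and outside any such gene for 97. ZTF-11 is a zinc finger transcription factor of the MYT1 family. Its chromatin was precipitated from whole L2 larvae of Caenorhabditis elegans, males and females pooled, at an age that the labels leave unknown, and sequenced (ChIP-seq). All animals were of strain OP236, genotype unc-119(ed3) III; wgIs236, in which a stably expressed transgene carries ZTF-11 with a GFP-FLAG tag at its C terminus. There was 1 group, with 2 biological replicates and no other genotype, stage or treatment, so no contrast between conditions exists, and whole animals do not show in which cells the protein was bound.

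The deposited score of a region is the authors' signal value, set against a control, on a scale that the sources used here do not give. The lists hold no read counts, so the depth of each replicate is unknown. A smaller set of 210 regions, 188 of them nuclear, was kept by the authors after comparing the replicates for reproducibility, and is called the thresholded set. Regions are not replicates, and several can share a snoRNA gene, so shares and medians are given beside those of all nuclear regions as a description and without a test. Bounds on shares are Wilson 95% intervals and cover counting error only.

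SnoRNAs guide the chemical modification of ribosomal and other RNAs in the nucleolus. Box C/D snoRNAs direct ribose methylation, carried out by fibrillarin, and box H/ACA snoRNAs direct pseudouridylation, carried out by dyskerin. In animals many lie in introns of host genes, often genes of ribosomal proteins and translation factors, and are released from the spliced intron, while others are transcribed from promoters of their own. In yeast and plants, some snoRNAs are made by RNA polymerase III from A and B box promoter elements like those inside tRNA genes.

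In 6 of the 15 thresholded regions the summit lay in the snoRNA gene or within 100 bp of it, and their sequences are shown because the position of the signal relative to the gene is the point of interest. Each is the 101 bases centred on the summit, read 5′ to 3′ on the strand of the snoRNA gene, from the RefSeq WBcel235 sequence, which has the coordinates of ce11. Capitals mark the bases of the annotated snoRNA. The windows are chrII:15025891-15025991 for Y53F4B.47 (minus strand), chrV:8500514-8500614 for ZK994.7 (plus strand), chrIV:2408624-2408724 for Y38F2AR.14 (minus strand), chrV:9970263-9970363 for C27H6.5 (minus strand), chrV:11314241-11314341 for T03F7.8 (plus strand) and chrIV:9511374-9511474 for smy-2 (minus strand).
Y53F4B.47: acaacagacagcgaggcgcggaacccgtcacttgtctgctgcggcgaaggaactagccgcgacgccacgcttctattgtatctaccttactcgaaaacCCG
ZK994.7: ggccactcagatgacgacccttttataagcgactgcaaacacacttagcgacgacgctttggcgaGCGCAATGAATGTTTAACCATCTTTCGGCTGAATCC
Y38F2AR.14: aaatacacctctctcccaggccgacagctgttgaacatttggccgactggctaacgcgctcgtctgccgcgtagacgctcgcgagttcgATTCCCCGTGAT
C27H6.5: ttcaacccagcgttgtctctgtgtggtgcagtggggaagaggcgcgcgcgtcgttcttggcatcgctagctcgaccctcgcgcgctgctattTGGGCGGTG
T03F7.8: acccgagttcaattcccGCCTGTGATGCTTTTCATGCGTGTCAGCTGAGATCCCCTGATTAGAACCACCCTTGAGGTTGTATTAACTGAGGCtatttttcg
smy-2: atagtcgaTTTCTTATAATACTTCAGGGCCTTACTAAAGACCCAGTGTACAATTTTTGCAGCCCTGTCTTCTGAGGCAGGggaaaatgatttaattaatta

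The capitals begin at the right-hand edge in Y53F4B.47, Y38F2AR.14 and C27H6.5, where the summit lay 48, 39 and 42 bp upstream of the 5′ end of the snoRNA. In ZK994.7 the summit was 15 bp upstream. In T03F7.8 and smy-2 it lay inside the snoRNA, 33 and 42 bp downstream of the 5′ end. The name smy-2 marks a gene of the SmY RNAs, small spliceosomal RNAs of nematodes linked to trans-splicing, although the annotation used here gives it the biotype snoRNA.

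A second kind of thresholded region had its summit in the promoter of the host, 124 to 758 bp from the snoRNA. The windows of the 3 of highest score, at cdc-48.1, rpl-15 and rps-12, are shown in the same way and hold no snoRNA base, so they have no capitals. They are chrII:10563510-10563610 for C06A1.9 (minus strand), chrIV:654881-654981 for K11H12.13 (minus strand) and chrIII:5679115-5679215 for F54E7.10 (plus strand).
C06A1.9: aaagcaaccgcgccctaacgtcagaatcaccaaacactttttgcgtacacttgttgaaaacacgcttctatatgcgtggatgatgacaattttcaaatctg
K11H12.13: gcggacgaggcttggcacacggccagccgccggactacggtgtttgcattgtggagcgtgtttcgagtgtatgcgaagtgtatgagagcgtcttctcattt
F54E7.10: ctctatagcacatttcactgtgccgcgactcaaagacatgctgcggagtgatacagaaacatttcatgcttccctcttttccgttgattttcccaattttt

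These windows were read on the strand of the snoRNA genes C06A1.9, K11H12.13 and F54E7.10, which is also the strand of their hosts. Their summits were 496, 570 and 213 bp upstream of the snoRNA, and 153, 355 and 133 bp upstream of the host's 5′ end.

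The annotation held 346 snoRNA genes, 216 with a host and 130 without. Of the hosted genes, 145 lay in an intron on the strand of the host, 27 in an intron on the opposite strand, 38 overlapped an exon on the same strand and 6 an exon on the opposite strand. Of all 346, 185 had a region within 1000 bp (53.5%, 48.2 to 58.7%), against 56.2% of protein-coding genes and 48.5% of tRNA genes. The share was 113 of 216 hosted genes (52.3%) and 72 of 130 genes without a host (55.4%). A region within this distance was thus about as frequent at snoRNA genes as at protein-coding genes, which are longer. Bases within 1000 bp of a snoRNA gene make up 0.695% of the nuclear genome and held 1.17% of the pooled and 7.98% of the thresholded nuclear regions.

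Several regions shared a snoRNA gene. Of 176 genes that were nearest to a region, 128 had 1, 37 had 2 and 11 had 3 or more, so 109 of the 237 regions shared their nearest gene with another. K10G6.10, in the host sea-2, and Y43F8C.22, in the host Y43F8C.7, had the most, with 4 each. Of the 237 regions, 224 had 1 snoRNA gene within 1000 bp, 12 had 2 and 1 had 3. The region farthest inside the distance had its summit 996 bp from ZK994.7 with a score of 13.0, and the nearest outside it lay 1010 bp from W05B2.9 with a score of 10.8. No snoRNA gene had an identical copy in the genome. The sources used here do not say how the authors treated reads that map to several places.

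Regions at snoRNA genes were in the thresholded set more often than nuclear regions in general. They counted 15 of 237 (6.33%, 3.87 to 10.2%), against 0.931% of all nuclear regions. The share was 11 of 140 at hosted genes (7.86%, 4.44 to 13.5%) and 4 of 97 at genes without a host (4.12%, 1.62 to 10.1%), and these intervals overlap. At tRNA genes, another class of short noncoding genes, it was 10 of 283 (3.53%, 1.93 to 6.38%). At small nuclear RNA genes it was higher, 8 of 55 (14.5%, 7.56 to 26.2%), and 3 of those 55 regions are among the 237. Of the 1000 nuclear regions of highest score, 39 were at snoRNA genes, which is 16.5% of the 237, where 4.95% of all regions are in the top 1000. The same share was 12.7% at tRNA genes and 30.9% at small nuclear RNA genes.

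In the middle of the distribution, scores exceeded those of all nuclear regions only slightly at hosted genes and more at genes without a host. The median was 12 at hosted genes and 14.4 at genes without a host, 12.9 over the 237, against 11.7 over all nuclear regions and 13.1 at tRNA genes. The middle part of the 237, between the lower and upper quartile, reached from 10.7 to 17.3, against 10.3 to 14.1 over all. The median of 14.4 at genes without a host thus lay above the upper quartile of all nuclear regions. The class with fewer thresholded regions, the genes without a host, was the one with the higher median.

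**Figure D1:**
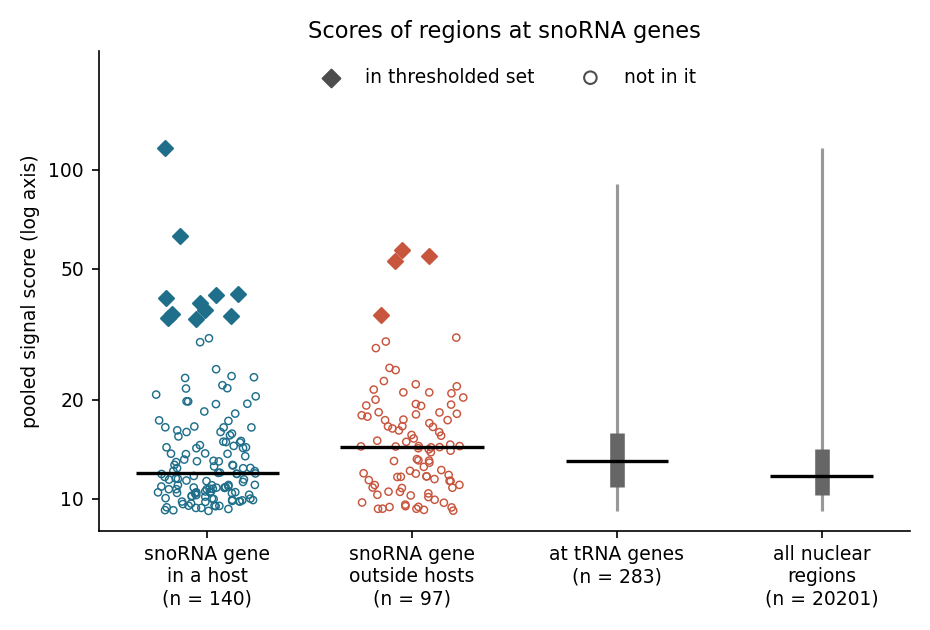
Pooled signal score of each region on a log axis, for 140 regions at hosted snoRNA genes and 97 at snoRNA genes outside hosts, with black bars at the medians of 12 and 14.4. Filled diamonds are in the thresholded set. For 283 regions at tRNA genes and all 20201 nuclear regions, the black bar is the median, the thick bar the quartiles and the thin line the range. Most snoRNA regions overlap the range of the rest, with medians above the 11.7 of all nuclear regions. The thresholded ones form the upper end.

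Where the summit fell divided the thresholded regions into groups. A promoter was taken as the 1500 bp before and the 500 bp after a protein-coding gene's 5′ end. The summits of 34 regions lay in the promoter of the snoRNA's own host, and 6 of these regions were thresholded (17.6%, 8.35 to 33.5%), with a median score of 14.2 over the 34. Another 53 summits lay in the snoRNA gene or within 100 bp of it, and 6 of these were thresholded (11.3%, 5.29 to 22.6%), with a median of 17.4. The remaining 150 held 3 thresholded regions (2.00%, 0.682 to 5.71%) and had a median of 11.8. All 3 were near snoRNA genes without a host. Of the 80 remaining regions at hosted genes none was thresholded, which allows a share of up to 4.58%. These places were defined after the scores had been seen.

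Promoters in general were richer in thresholded regions than other sequence. Of the regions at snoRNA genes, 43.5% lay in a protein-coding promoter, against 35.01% of all nuclear regions. Within promoters 10 of 103 regions at snoRNA genes were thresholded (9.71%), against 1.7% of all promoter regions. Outside promoters the counts were 5 of 134 (3.73%), against 0.518% of all such regions. The share was thus above the background both in and outside promoters.

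Among host promoters, that of cdc-48.1, an AAA ATPase that unfolds ubiquitinated proteins, held the nuclear region of highest score in the whole list. The region, chrII:10563496-10563602, scored 116.3 in the pooled list, with 56.9 in replicate 1 and 55.3 in replicate 2. It was narrower than the single width that 99.995% of all nuclear regions had. Its snoRNA, C06A1.9, lies in an intron of that gene, and the summit also lay in the promoter of C06A1.7. The region at rpl-15, a protein of the large ribosomal subunit and host of K11H12.13, scored 63.1, with 44.0 in replicate 1 and 14.5 in replicate 2 (chrIV:654743-655118). That at rps-12, of the small subunit and host of F54E7.10, scored 41.8, with 20.9 and 25.8 (chrIII:5678977-5679352). The replicates were close at cdc-48.1 and rps-12 and far apart at rpl-15, where replicate 1 was the higher.

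The other 3 thresholded regions in host promoters belonged to genes of unlike roles. At fbxl-2, an F-box protein gene and host of B0393.10, the region scored 40.7, with 16.2 in replicate 1 and 22.2 in replicate 2. At iff-2, a gene of translation factor eIF5A and host of F54C9.12, it scored 39.4, with 25.3 in replicate 1. The summit lay in no region of the replicate 2 list, the only such case among the 15. At tmem-107, a gene of the ciliary transition zone, the region scored 35.2, with 20.4 and 14.2. Its snoRNA F39B2.14 overlaps an exon of the host, and the summit lay also in the promoter of rps-26, which encodes a ribosomal protein. This summit was 124 bp upstream of the snoRNA and 63 bp upstream of the host's 5′ end, so the 2 cannot be told apart here. The summits at rpl-15, rps-12 and iff-2 likewise lay in promoters of further genes, and only that at fbxl-2 lay in the promoter of its host alone.

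At the snoRNA genes themselves, 5 of the 6 thresholded regions were at hosted genes, in introns. ZK994.7, in pxn-1, which encodes the extracellular matrix enzyme peroxidasin, had a region of 41.7, with 23.5 in replicate 1 and 18.9 in replicate 2. A tRNA gene lay 928 bp from this summit. Y38F2AR.14, in the host Y38F2AR.12, had 37.4, with 17.7 and 14.7. C27H6.5 lies in unc-41, the stonin gene needed for the recovery of synaptic vesicles, and had 36.4, with 17.2 and 20.7. In these 3 genes the snoRNA has the strand of the host, and no protein-coding promoter held the summit. Nuclear regions in both replicate lists had median scores of 7.46 in replicate 1 and 6.24 in replicate 2. For the thresholded ones among them the medians were 23.6 and 18.4. Scores above the first pair are thus a trait of the thresholded set and not of these 3 regions.

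T03F7.8 lies on the strand opposite to its host cutl-18, a cuticlin-like gene. Its region scored 35.8, with 18.1 in replicate 1 and 13.96 in replicate 2. The region at smy-2, in an intron of C33A12.3, scored 35.4, with 12.7 and 16.3. The gene smy-1, annotated as a small nuclear RNA, lay 339 bp from that summit. The summit also lay in the promoter of C33A12.4, 855 bp upstream of its 5′ end. Y53F4B.47, without a host, had the highest score of the 6, at 57.0, with 31.7 in replicate 1 and 25.1 in replicate 2. Its summit was 173 bp upstream of cmtr-1, which encodes an mRNA cap methyltransferase, so for this region the snoRNA and the coding promoter cannot be told apart.

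The 3 thresholded regions elsewhere were upstream of snoRNA genes without a host. That at T27A8.8 was 827 bp upstream, in no protein-coding promoter, and scored 54.5, with 24.5 in replicate 1 and 41.9 in replicate 2. That at W06H8.17 was 245 bp upstream and scored 53.0, with 20.2 and 29.9, in the promoter of W06H8.6. That at F37F2.4 was 311 bp upstream and scored 36.2, with 27.8 and 8.30, in the promoter of F37F2.2. Replicate 2 was the higher at the first 2 and replicate 1 at F37F2.4. The other regions among the 10 highest without a host were at Y17G7B.25, F59C6.15, F55H12.9, ZK265.10, F32E10.10 and M7.15, with scores of 22.8 to 30.9 and none in the thresholded set. Only that at F55H12.9 was downstream of its snoRNA.

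The thresholded regions were at or upstream of the snoRNA genes. Upstream of the 5′ end lay 126 summits, of which 13 were thresholded (10.3%, 6.13 to 16.9%). Inside the gene lay 18, with 2 thresholded. Downstream lay 93 with none, which allows a share of up to 3.97% and so includes the 0.931% of all nuclear regions. At hosted genes 9 of 72 upstream and 0 of 57 downstream regions were thresholded. Of those 9, 6 lay in host promoters, and a host's 5′ end is upstream of any snoRNA on its strand. At genes without a host the counts were 4 of 54 upstream and 0 of 36 downstream. The downstream regions are too few to set their share apart from that of all nuclear regions. The share of summits found in both replicate lists was 46.0% upstream, 61.1% inside the gene and 16.1% downstream, against 25.3% of all nuclear regions.

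**Figure D2:**
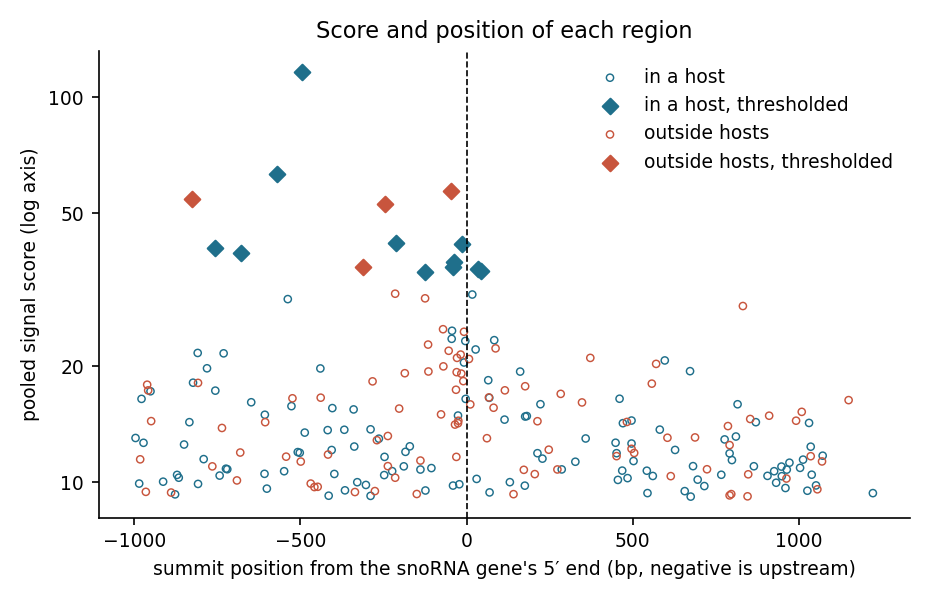
Pooled signal score (log axis) of each region against the position of its summit in bp from the 5′ end of the nearest snoRNA gene, negative upstream. Filled diamonds are thresholded, blue is for hosted genes and red for genes outside hosts. All 15 diamonds lie upstream of the 5′ end or, for T03F7.8 and smy-2, within 42 bp downstream of it.

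Summits were most frequent just upstream of the 5′ end. In the 100 bp before it there were 12 summits over 216 hosted genes, or 5.56 per 100 genes, and 16 over 130 genes without a host, or 12.3 per 100 genes. In the other bins of 100 bp the count was between 0.926 and 4.63 per 100 hosted genes and between 1.54 and 6.92 per 100 genes without a host. The next highest bins held 10 summits at hosted genes and 9 at genes without a host, so at hosted genes the excess was small. Counted by gene, 21 of 216 hosted genes (9.72%, 6.45 to 14.4%) and 22 of 130 without a host (16.9%, 11.4 to 24.3%) had a summit within 100 bp of the 5′ end, on either side. The share was 4.73% over 19973 protein-coding genes, 11.6% over 129 small nuclear RNA genes and 18.8% over 612 tRNA genes. SnoRNA genes thus lay between protein-coding and tRNA genes in this respect.

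**Figure D3:**
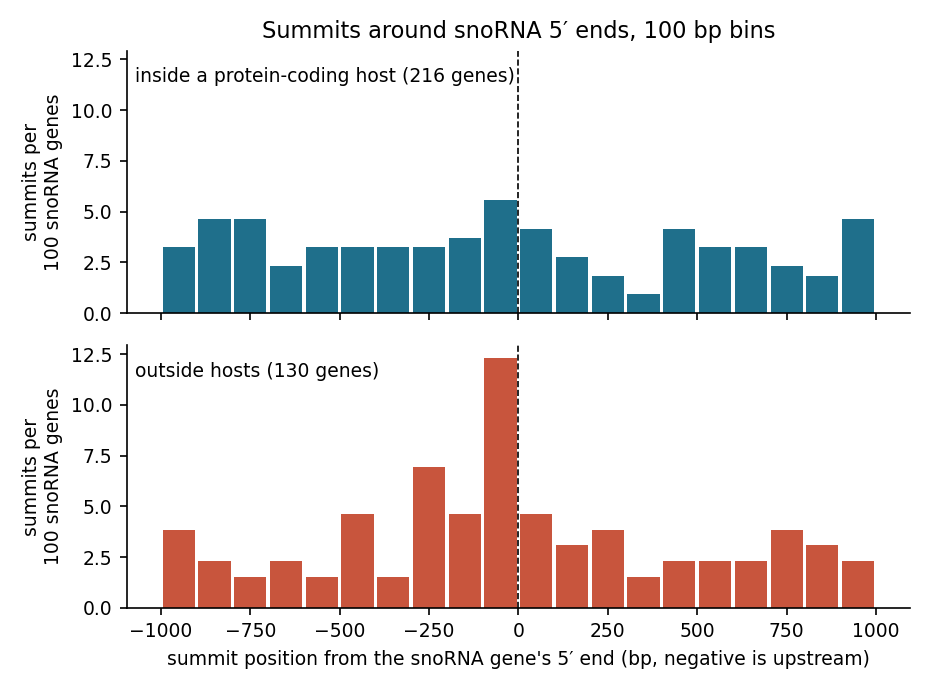
Number of summits per 100 snoRNA genes in bins of 100 bp around the 5′ end, negative upstream, for 216 hosted genes above and 130 genes outside hosts below. The bin just upstream is the highest in both, at 5.56 and 12.3 per 100 genes. Each summit is counted once, at its nearest snoRNA gene.

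Regions near the snoRNA gene also had higher scores and were found in both replicates more often. The 55 regions within 100 bp of the gene had a median score of 17.4, 60% of them had their summit in both replicate lists, and 6 were thresholded (10.9%, 5.10 to 21.8%). The 182 regions at 101 to 1000 bp had a median of 11.9, with 28.02% in both lists and 9 thresholded (4.95%, 2.62 to 9.13%). GC content moved with this distance. It averaged 46.0% within 50 bp of the summit in the near regions and 36.2% in the far ones, and its part in the difference was not tested.

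Hosts were next grouped by function. Ribosomal protein genes were 13 of the 188 hosts and held 19 snoRNA genes, of which 17 had a region within 1000 bp. Counted by ribosomal protein gene instead, with or without a snoRNA, 60 of all 78 had a region (76.9%) and 14 a thresholded one (17.9%). Of the 95 nuclear regions within 1000 bp of any ribosomal protein gene, 14 were thresholded. The 15 regions nearest to a snoRNA in a ribosomal protein host had a median score of 14.3. Of these 15, 2 were thresholded, at rpl-15 and rps-12, a share near that of the 95. Next by score came rps-29, whose region scored 29.9, with 18.9 in replicate 1 and 8.77 in replicate 2. Its summit lay 439 bp upstream of rps-29 and closer, 128 bp, to the 5′ end of snt-2, which encodes a synaptotagmin. Those at rpl-26, rps-4, rpl-7A, rpl-6, rpl-4, rpl-7, rps-13, rps-23 and rpl-24.1, and a second one at rpl-15, scored between 9.52 and 16.5.

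Translation factor genes were 3 of the hosts, with 5 snoRNA genes, of which 1, F54C9.12 in iff-2, had regions. Besides the thresholded one it had a second, of score 10.04, 318 bp upstream of the 5′ end of iff-2. The 172 other hosts held 192 snoRNA genes, of which 95 had a region. The 123 regions nearest to them had a median of 11.9, and 8 were thresholded. The numbers at ribosomal protein and translation factor hosts are too small to set the 3 groups of hosts apart.

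The bases just upstream of some snoRNA genes carried letters of the B box, a promoter element of tRNA genes. The letters searched were GTTCGANNC and GTTCAANNC, on the strand of the gene, in the 100 bp before the 5′ end and the first 20 bp of the gene. They were present at 37 of 346 snoRNA genes (10.7%), against 10 of 129 small nuclear RNA genes (7.75%) and 0.926% of protein-coding genes. The matches began 70 to 5 bp upstream of the 5′ end, with a median of 14 bp. A summit lay within 100 bp of the 5′ end at 12 of these 37 genes (32.4%, 19.6 to 48.5%) and at 31 of the other 309 (10.03%, 7.16 to 13.9%). By host, the counts were 7 of 21 hosted genes and 5 of 16 without a host. In the 100 bases upstream, GC content was also higher at the 37, at 52.6 ± 7.83%, against 43.2 ± 10.1% at the 309 (SD over genes), and its part in the difference was not tested.

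In 16 of the 37 genes the B box letters followed A box letters, searched as GGCNNANNG or GGTNNANNG, against 6 of all protein-coding genes. A summit lay near the 5′ end of 9 of these 16. The A box letters, the second form of the B box and the windows were written after the sequences at summits had been seen, so these counts describe those genes and support nothing further. A match of letters is not a promoter in use. Sequences are shown for 7 of the 9, to let the layout be read, and not for T19B4.8 and ZK484.9. Each line has the 80 bases upstream of the snoRNA gene and its first 20, from RefSeq WBcel235 on the strand of the gene, with the B box letters in capitals. The windows are chrIV:2408616-2408715 for Y38F2AR.14 (minus strand), chrV:11314178-11314277 for T03F7.8 (plus strand), chrII:5105212-5105311 for C04G6.12 (minus strand), chrIII:5602160-5602259 for C05D2.15 (minus strand), chrV:15191074-15191173 for Y75B12B.12 (minus strand), chrII:9774815-9774914 for T10B9.11 (minus strand) and chrII:10840237-10840336 for M106.6 (plus strand).
Y38F2AR.14: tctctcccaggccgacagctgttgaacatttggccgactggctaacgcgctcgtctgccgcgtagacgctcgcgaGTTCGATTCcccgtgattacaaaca
T03F7.8: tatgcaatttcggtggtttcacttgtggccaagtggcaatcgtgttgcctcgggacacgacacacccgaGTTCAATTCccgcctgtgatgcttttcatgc
C04G6.12: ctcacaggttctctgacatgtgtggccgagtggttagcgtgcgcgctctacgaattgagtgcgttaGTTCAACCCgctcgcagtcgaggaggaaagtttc
C05D2.15: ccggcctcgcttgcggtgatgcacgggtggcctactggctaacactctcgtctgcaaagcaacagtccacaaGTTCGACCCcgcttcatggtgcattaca
Y75B12B.12: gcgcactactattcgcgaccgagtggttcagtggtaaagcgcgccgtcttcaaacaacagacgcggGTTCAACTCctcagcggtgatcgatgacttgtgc
T10B9.11: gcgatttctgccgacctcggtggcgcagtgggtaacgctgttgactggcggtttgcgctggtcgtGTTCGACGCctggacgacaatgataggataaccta
M106.6: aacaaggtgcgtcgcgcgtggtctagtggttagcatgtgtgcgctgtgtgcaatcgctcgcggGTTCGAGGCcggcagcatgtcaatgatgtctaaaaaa

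The snoRNA begins at base 81 of each line. The capitals start 5 to 17 bp before it, and in Y38F2AR.14 and C05D2.15 they run into its first bases. The regions at these genes scored 37.4 at Y38F2AR.14, 35.8 at T03F7.8, 24.8 at C04G6.12, 23.4 at C05D2.15, 17.4 at Y75B12B.12, 16.6 at T10B9.11 and 16.5 at M106.6. At T19B4.8 and ZK484.9 they scored 22.3 and 9.81. The first 2 of the 9 were the thresholded ones. C04G6.12, in the host mpk-2, had 16.7 in replicate 1 and 10.8 in replicate 2, and C05D2.15, in madf-11, had 9.58 and 9.39. The summit at Y75B12B.12 lay in a region of the replicate 2 list alone, with 10.9, and so did that at M106.6, with 4.37. The summits at T10B9.11 and T19B4.8 lay in regions of the replicate 1 list alone, with 14.9 and 18.4. Hosted and unhosted genes were both among the 7.

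Regions at snoRNA genes were richer in GC than other regions. Within 50 bp of the summit GC content was 38.4 ± 11.3% over the 237, against 33.6 ± 9.25% over all nuclear regions (SD over regions). It was 52.1% at the 15 thresholded ones and 48.8% over all thresholded nuclear regions. Regions were then set in classes of GC content, which are broad, so GC content need not be equal within a class. The thresholded share by class was as follows. Under 35% it was 0 of 94 at snoRNA genes (0 to 3.93%) and 10 of 11958 elsewhere (0.0836%, 0.0454 to 0.154%). From 35 to 45% it was 4 of 77 (5.19%, 2.04 to 12.6%), against 39 of 5630 (0.693%, 0.507 to 0.946%). From 45 to 55% it was 3 of 43 (6.98%, 2.40 to 18.6%), against 92 of 2010 (4.58%, 3.75 to 5.58%). At 55% or more it was 8 of 23 (34.8%, 18.8 to 55.1%), against 32 of 366 (8.74%, 6.26 to 12.1%). The intervals overlapped under 35% and in the class of 45 to 55%. They did not in the 35 to 45% class or the highest class.

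**Figure D4:**
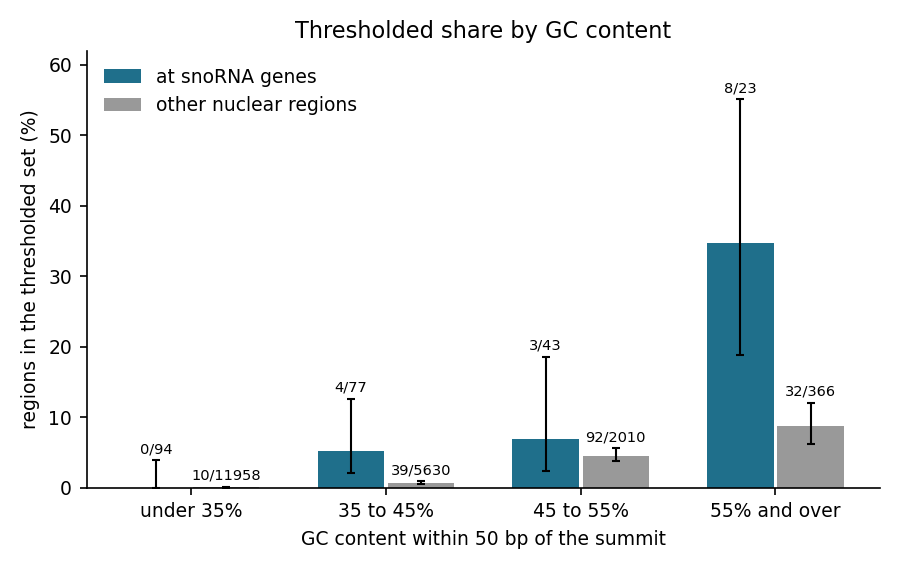
Percent of regions in the thresholded set by GC content within 50 bp of the summit, for regions at snoRNA genes (blue) and all other nuclear regions (grey). Bars show the share, error bars the Wilson 95% interval, and the numbers above them thresholded regions over all regions of the class. In the highest class 8 of 23 regions at snoRNA genes and 32 of 366 other regions were thresholded.

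AAAGTT and TATAAA were less frequent at these summits than over all nuclear regions, and GCGCGA and GTTCGANNC were more frequent. AAAGTT, the core that MYT1 family proteins recognise in vertebrates, occurred on either strand within 50 bp of 13.5% of the summits, against 20.1% of all nuclear regions. It occurred at none of the 15 thresholded summits, and at 7 of the 188 thresholded nuclear regions in general (3.72%), so the 0 of 15 is near the background. TATAAA occurred at 11.8%, against 13.1%. GCGCGA occurred at 2.95%, against 1.58%, and GTTCGANNC at 2.11%, against 0.83%. GCGCGA was at 2 of the 15 thresholded summits, near its share of all thresholded nuclear regions, 29 of 188 (15.4%). AAAGTT and TATAAA are poor in GC, and the base composition of the windows differed as given above.

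The summits of 84 of the 237 regions lay in a region of both replicate lists (35.4%), against 25.3% of all nuclear regions. By class this was 48 of 140 at hosted genes (34.3%) and 36 of 97 at genes without a host (37.1%). A further 74 were in the replicate 1 list alone, 53 in that of replicate 2 alone and 26 in neither. Over all 20201 nuclear regions these counts were 7171, 5496 and 2416. At the 84, scores in replicate 1 had a median of 10.2, and those in replicate 2 one of 7.23, with replicate 1 the higher at 59. The ratio of replicate 1 to replicate 2 had a median of 1.27, with quartiles of 0.97 and 1.88. Replicate 1 was also the higher at 3421 of all 5118 nuclear regions in both lists. Their median ratio was 1.20, with quartiles of 0.90 and 1.61, so the higher replicate 1 scores are not particular to snoRNA genes. The score order was partly shared, with a Spearman correlation of 0.42 across the 84 regions and 0.18 across all 5118 nuclear regions in both lists. These are correlations across regions, which share libraries and base composition, and are given as a description. Of the 15 thresholded ones 14 were in both lists, as were 181 of the 188 thresholded nuclear regions (96.3%), a set that was chosen for reproducibility between the replicates.

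**Figure D5:**
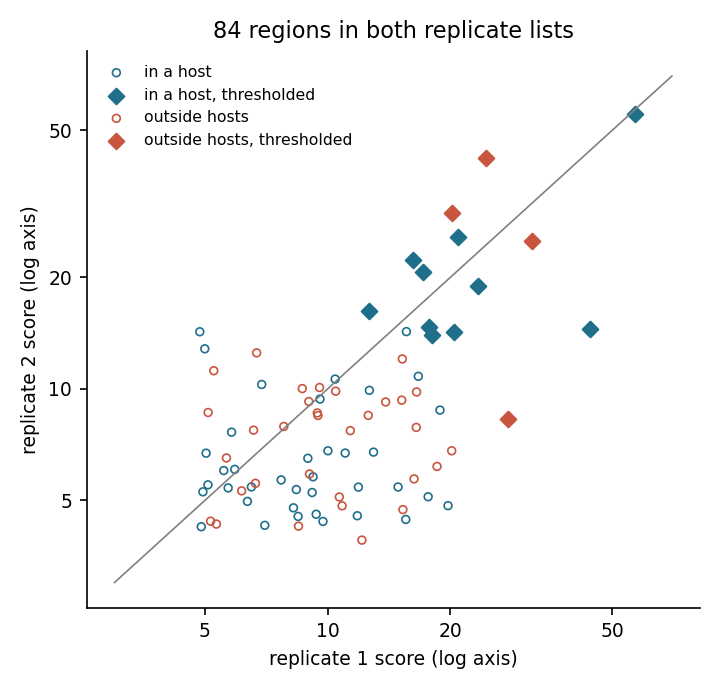
Score in replicate 2 against score in replicate 1 (both log axes) for the 84 regions at snoRNA genes whose summits lay in both replicate lists. The line marks equal scores, filled diamonds are thresholded, blue is for hosted genes and red for genes outside hosts. Replicate 1 is the higher at 59 of the 84, as it is at 3421 of all 5118 nuclear regions in both lists. The thresholded regions lie towards the upper right.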

How the data were processed

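Whole L2 larvae of 1 strain were profiled by ChIP-seq in 2 biological replicates, numbered in the labels. Per the file headers (text notes beside the lists), regions were called for either replicate and for both pooled, against a control, and the authors then derived a thresholded set by the irreproducible discovery rate. The sources used here give no aligner, caller, version or threshold. The deposited score is a signal value of the authors, whose scale is not given. It served to describe and order regions inside 1 list, and replicate scores were set side by side at shared places. The deposited summit offset gave each summit. The ce11 lists held 30000 regions per replicate, 20223 pooled and 210 thresholded. The 22 pooled mitochondrial regions were left out, and the ce10 lists and q values were not used here.

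Genes came from Ensembl release 115 on WBcel235 and sequence from RefSeq WBcel235. All 346 snoRNA genes matched the RefSeq gene table. A host is a protein-coding gene that contains the snoRNA gene on either strand, and a region was classed by its nearest snoRNA gene. Replicates were compared by whether a pooled summit lay in a replicate's region. No test was made, since there is 1 group. Distances were checked on simulated data. Named are the thresholded regions, the 10 highest with and without a host, the genes with most regions, and hosts that are ribosomal protein or translation factor genes. Genes with B box letters were named after their values were seen. Members and lists were chosen with earlier results of these data known. Tables were handled with pandas 2.3.3 and numpy 2.4.6, intervals computed with scipy 1.17.1 and figures drawn with matplotlib 3.10.9, all in Python 3.11.15.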

Additional observations from a re-analysis of the deposited data

How the results depend on the processing

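No paired analysis was possible because there is 1 group of 2 replicates and no test. The number of regions at snoRNA genes was 139 with a distance of 500 bp and 390 with 2000 bp. Their median score was 7.22 in the replicate 1 list alone (without replicate 2) and 5.90 in the replicate 2 list alone (without replicate 1), against 6.62 and 5.58 over all nuclear regions of those lists, which have score scales of their own. The thresholded share was 3.38% for thresholded regions with scores over 40.5, the median of the nuclear set, against 0.465% of all nuclear regions. Outside protein-coding promoters it was 3.73%, against 0.518% of all nuclear regions there. With limits chosen after seeing the data, it was 10.9% within 100 bp of the snoRNA gene and 4.43% outside host promoters. It was 16.7% at a GC content of 45% or more and 2.34% under that. The share over all nuclear regions, 0.931%, also rose with GC content, from 0.0830% under 35% to 10.3% at 55% or more. At snoRNA genes it was 5.60% without regions near a tRNA or small nuclear RNA gene. Hosted genes were nearest to 51.1% of the regions when the host had to share the strand, against 59.1%. With 1 base of overlap, 48.9% were in both replicate lists. The cause of these shifts was not tested. The unknown depth and the unstated handling of multiply mapped reads limit every score, and 15 thresholded regions leave wide intervals for each subgroup.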

Other observations

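Of 7 genes of proteins that act with snoRNAs, 6 had a region within 1000 bp, against 56.2% of protein-coding genes. None was thresholded, where 1.24% of protein-coding genes had a thresholded region. Within 1000 bp of fib-1, the methyltransferase fibrillarin, lay 2 regions with a top score of 18.1, and at nol-56, a core protein of box C/D particles, 2 with a top score of 14.8. Both regions at nol-56 are also among the 237, since nol-56 is itself a host of snoRNA genes. The related nol-58 had 3, up to 24.2, and snu-13, which binds the kink-turn of these RNAs, had 1 of 11.3. Of the box H/ACA proteins, nola-3 had 1 region of 27.8, garr-1 had 3, up to 18.8, and dkc-1, the pseudouridine synthase dyskerin, had none.

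The 237 regions were spread over all nuclear chromosomes, with 61 on chromosome I, 52 on II, 32 on III, 39 on IV, 35 on V and 18 on X. The thresholded ones numbered 2, 3, 2, 3, 4 and 1 in that order. By annotation, 117 summits lay outside protein-coding genes, with 10 thresholded, and 76 in introns, with 5 thresholded. Coding exons held 26, 3′ UTRs 14 and 5′ UTRs 4, with none thresholded. This allows shares of up to 12.9, 21.5 and 49.0%, and 0.931% of all nuclear regions were thresholded. How all nuclear regions divide by chromosome and annotation is not given here, so these counts only describe the 237. The 2 smy genes annotated as snoRNA genes were nearest to 4 of the regions. Regions that also lay within 1000 bp of a tRNA or small nuclear RNA gene numbered 5, of which 2 were thresholded, at ZK994.7 and smy-2.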
